A study of Homo sapiens with 6 samples.

Results

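Melanocytes and melanoma cells owe their identity to a small set of transcription factors, and 10 of them were examined here in bulk RNA sequencing of A375 cells, a human melanoma line. They were MITF, SOX10, PAX3 and TFAP2A, which specify and maintain the melanocyte lineage, SOX9 and POU3F2 (BRN2), which are associated with less differentiated or invasive melanoma cells, and ZEB1, ZEB2, SNAI2 and TWIST1, which are regulators of the epithelial-mesenchymal transition. The factors were chosen by name, and each matched 1 of the 58302 gene IDs in the count tables. 3 libraries came from A375 cells stably carrying an empty vector and 3 from A375 cells stably overexpressing HMGB2, a chromatin protein that bends DNA. The labels name no treatment of the cells. The study made its stable lines by lentiviral transduction, with blasticidin or puromycin to select transduced cells, and sequenced pellets of cells, and its reporting form calls the 3 replicates technical, so every p-value here measures only the spread between pellets of a line. In such bulk samples, fewer cells of a kind and less RNA per cell cannot be told apart.

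MITF is the master regulator of the melanocyte and drives pigment, survival and cell cycle genes. SOX10 and PAX3, with CREB and LEF1, activate MITF from its melanocyte promoter, whereas high POU3F2 and a shift from ZEB2 and SNAI2 towards ZEB1 and TWIST1 are known from melanoma cells that have moved to an invasive, dedifferentiated state. This exchange of one state for another is called phenotype switching, and it can proceed without mutation.

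Stretches of 250 bases upstream of annotated starts are shown for 2 genes, MITF and 1 of its targets, to describe which motifs they hold. Sequences are from RefSeq on GRCh38.p14, run 5′ to 3′ on the strand of the gene and end at the base before the start. 6 of the 10 factors had such a window. The search used 6 motifs on both strands: CTTTGAT (LEF1), TGACGTCA (cAMP response element), AACAAT (SOX core), CATGTG and CACGTG (E-boxes read by MITF) and CAGGTG (the E-box read by ZEB and SNAI factors). The letters of the LEF1 motif were chosen after the MITF window had been read. In the window before the melanocyte start of MITF, chr3:69936342-69936591 on the plus strand, capitals mark CTTTGAT, 204 bases before the start, and TGACGTCA, 152 bases before it.
MITF, melanocyte start: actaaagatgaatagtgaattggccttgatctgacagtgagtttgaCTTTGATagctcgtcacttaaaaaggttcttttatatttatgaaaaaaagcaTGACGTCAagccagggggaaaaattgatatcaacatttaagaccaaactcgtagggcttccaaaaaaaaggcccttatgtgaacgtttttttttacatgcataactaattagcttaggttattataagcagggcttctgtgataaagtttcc
In the window of BCL2A1, a survival gene driven by MITF, chr15:79971197-79971446 on the minus strand, capitals mark CATGTG, 25 bases before the start.
BCL2A1: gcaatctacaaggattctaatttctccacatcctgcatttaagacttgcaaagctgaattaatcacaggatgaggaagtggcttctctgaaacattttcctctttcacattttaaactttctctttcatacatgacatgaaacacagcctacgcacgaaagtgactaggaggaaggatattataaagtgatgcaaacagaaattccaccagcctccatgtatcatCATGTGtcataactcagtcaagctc
Among 35116 windows of this length, 2.26% held CTTTGAT, 1.65% held TGACGTCA, 9.42% held CATGTG and 17.5% held CAGGTG, so a match is a description of the letters and not a site. Of the other factors, POU3F2 held CTTTGAT 88 bases before its start and ZEB2 held CATGTG 180 bases before its start, and the windows of PAX3 and TFAP2A held none of the 6 motifs, nor did the other two windows of MITF. ZEB1 had windows for 7 starts, of which 1 held CAGGTG 57 bases before its start, another held CAGGTG 242 and 85 bases before its start, and another held CATGTG 40 and 29 bases before its start. Of the list genes named below, AXL held CAGGTG 106 bases before 1 start and CATGTG 79 bases before another. FN1 held TGACGTCA 183 bases before its start. TFAP2B held AACAAT, found in 8.98% of windows, 114 bases before its start. The windows of MET, another target of MITF, and of CLDN1, CREB1, CTNNB1, NES, SPARC, TGFBI and VIM held none. The part of these motifs in any level was not tested.

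HMGB2 itself, the overexpressed gene, had normalized counts (counts divided by DESeq2 size factors) of 7250, 7729 and 7562 in the empty vector libraries and 15095, 16848 and 14609 in the HMGB2 overexpression libraries. Its log2 fold change was 1.05 (SE 0.10), with a DESeq2 adjusted p of 4.41e-22. The 6 libraries held between 45925053 and 56755212 reads assigned to genes. Empty vector library 3 stood apart from its group. The chi-square of its counts per degree of freedom was 73.4 against empty vector library 1 and 81.7 against empty vector library 2. Between empty vector libraries 1 and 2 the value was 13.6. Empty vector library 3 was nearer to every HMGB2 overexpression library than to its own group. Its values against HMGB2 overexpression libraries 1, 2 and 3 were 45.0, 62.3 and 33.1. HMGB2 overexpression library 3 had 10.6% multimapped reads, against 2.58% to 4.89% in the other five. For genes whose fold change is given below, a call that turns on empty vector library 3 is therefore given with and without it. None of the markers of keratinocytes, fibroblasts, immune cells or endothelial cells passed the test over all 6 libraries. The summed normalized counts of these lists ran from 4585 to 4966 and 4544 to 5092 for the 5 keratinocyte genes in empty vector and HMGB2 overexpression libraries, from 2177 to 3804 and 3494 to 4682 for the 5 fibroblast genes, from 493 to 522 and 527 to 701 for the 5 immune genes, and from 80.6 to 109 and 97.5 to 107 for the 3 endothelial genes. The keratinocyte sum was mostly KRT10, a suprabasal keratin, at 3816 to 4410 normalized counts. KRT5, a basal keratin, had normalized counts of 5.05, 11.5 and 279 in the empty vector libraries and 250, 200 and 289 in the HMGB2 overexpression libraries, with a DESeq2 adjusted p of 0.798, or 2.97e-29 without empty vector library 3. DSG3, a desmosomal cadherin, had 4.04, 1.77 and 9.66 against 57.2, 7.88 and 15.8, with a log2 fold change of 2.41 and a DESeq2 adjusted p of 0.0713, or 0.00684 without empty vector library 3, 0.0280 without HMGB2 overexpression library 2 and 0.869 without HMGB2 overexpression library 1. The part of these markers in the results below was not tested. KRT1 and PTPRC, defining markers of differentiated keratinocytes and of leukocytes, had no count in any library. Other genes of the same lists were counted in every library. KRT14, of the keratinocyte list, had 421 to 694 normalized counts, and LYZ, of the immune list, had 488 to 701. Of the 5 immune genes only 1 could be tested.

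All 10 factors were expressed in A375 cells, and none passed the test between the groups. Of the 18878 genes tested with DESeq2 at an adjusted p under 0.05, 930 (4.93%) passed, 432 of them higher and 498 lower in HMGB2 overexpression libraries. At an unadjusted p under 0.05, 1 of the 10 factors passed with DESeq2 and 1 with edgeR, in both cases SOX9, beside 14.3% of all genes tested with DESeq2 and 16.5% with edgeR. The median log2 fold change of the 10 factors was 0.020, and that of all genes tested was 0.0027. SOX9 was also the only factor whose libraries did not overlap between the groups, beside 21.8% of all genes tested. A p that misses the threshold does not show that a level stayed the same, so the 95% interval of each fold change is given below.

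**Figure D1:**
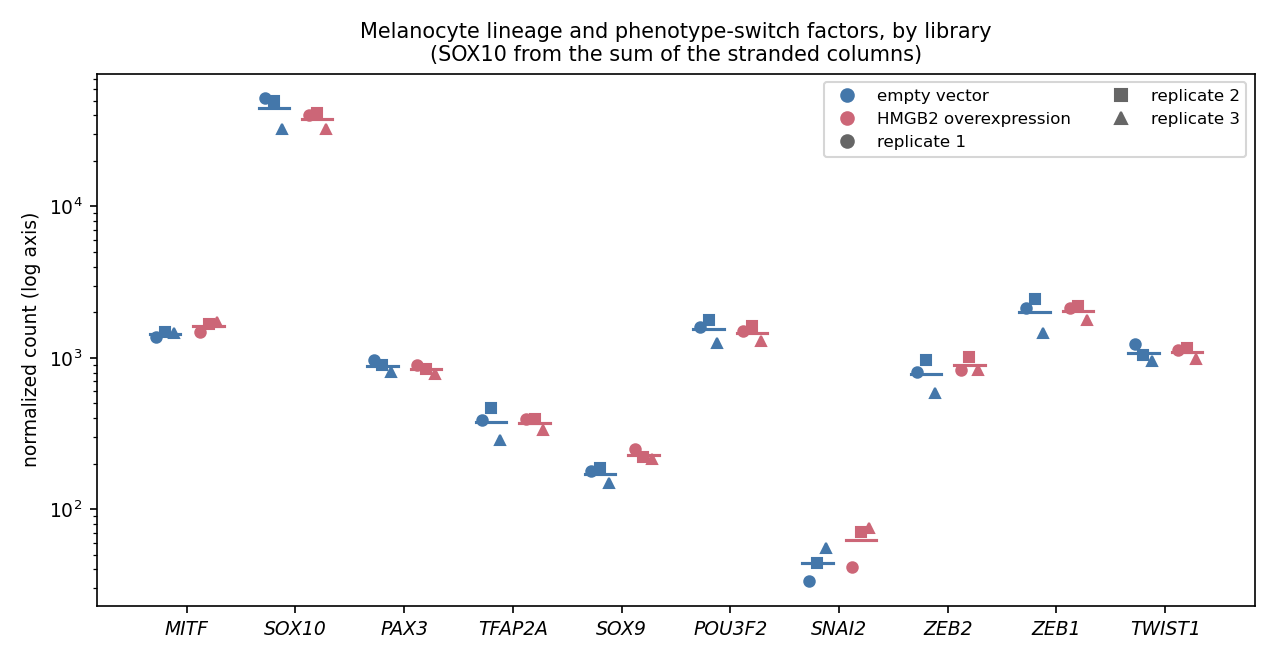
Normalized counts of the 10 factors in each library, with a log axis; points are single libraries of the empty vector and HMGB2 overexpression groups, shaped by replicate, short lines are group means, and SOX10 is from the sum of the stranded columns. The groups overlap for 9 factors, and for SOX9 all 3 HMGB2 overexpression libraries, from 216 to 249, sit above the empty vector libraries, from 149 to 187.

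The order of the factors by level, on the scale of normalized counts per kilobase of the canonical transcript, ran from SOX10 down to SNAI2. SOX10 had a mean of 14367 per kilobase over the 6 libraries, with a range of 11188 to 18121, far above TWIST1 at 666 (587 to 752). ZEB1 followed at 341, MITF at 320, POU3F2 at 308 and PAX3 at 257, and then TFAP2A at 120, ZEB2 at 90.6, SOX9 at 50.9 and SNAI2 at 24.6. The ranges of neighbours did not overlap between SOX10 and TWIST1, TWIST1 and ZEB1, PAX3 and TFAP2A, or SOX9 and SNAI2. They overlapped between ZEB1 and MITF and between MITF and POU3F2, with the first of each pair above the second in 4 of 6 libraries. They also overlapped between POU3F2 and PAX3, TFAP2A and ZEB2, and ZEB2 and SOX9, although in those pairs the first was above the second in 6 of 6 libraries. The order depends on the length used. For ZEB2 the annotated exons cover 26151 bases and the canonical transcript 9265, and over all exons its level was 32.1 per kilobase. Over all exons POU3F2, at 308, stood above ZEB1 at 234 and MITF at 207, and SOX9, at 50.9, stood above TFAP2A at 45.8. SOX10 was read from other columns than the other factors, so its height rests on the sum of the stranded columns.

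MITF, the master regulator, is encoded at chr3:69739456-69968336 on the plus strand (ENSG00000187098). It had normalized counts of 1381, 1486 and 1457 in the empty vector libraries and 1479, 1683 and 1719 in the HMGB2 overexpression libraries. The lowest HMGB2 overexpression library lay within the empty vector range, and the other two lay above it. The log2 fold change was 0.17 (SE 0.11, 95% interval -0.046 to 0.39), with a DESeq2 adjusted p of 0.534, which leaves room for a level between 0.969 and 1.31 times that of the empty vector cells. The estimate stayed positive, between 0.13 and 0.24, in all 14 alternatives, and passed the test in none of them.

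SOX10, which holds cells in the neural crest and melanocyte lineage, is encoded at chr22:37970686-37987422 on the minus strand (ENSG00000100146). In the column for either strand, which counts a read for neither gene where annotated genes of both strands cover it, SOX10 had 0 counts in every library. In the stranded columns it had 51747, 56464 and 29887 reads in the empty vector libraries and 44363, 42092 and 28863 in the HMGB2 overexpression libraries, with 49.5% to 50.4% of them in the first of these columns. A second ID, ENSG00000279010, had 1.01 to 1.02 times as many reads as SOX10 in every library. POLR2F is an RNA polymerase subunit gene that lies opposite SOX10 and shares 260 bases of exon with it. It had 87 to 173 assigned reads per library. Such counts can leave out reads that cover more than 1 gene, so they need not give the level of POLR2F. The second ID did not match GENCODE 44, and whether it overlaps SOX10 was not checked by position. The libraries are not stranded, so the sum can hold reads of any gene that overlaps SOX10.

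The normalized sum for SOX10 was 52279, 49938 and 32278 in the empty vector libraries and 40252, 41389 and 32561 in the HMGB2 overexpression libraries. Replicate 3 was low and nearly equal in both groups, and among the other 4 libraries the HMGB2 overexpression libraries were below the empty vector libraries. The log2 fold change over all 6 libraries was -0.24 (SE 0.18, 95% interval -0.59 to 0.12), with a DESeq2 adjusted p of 0.654. An exact two-sided permutation test of the log2 values gave a difference of -0.21 with p = 0.5, where the smallest p possible with 3 against 3 libraries is 0.1. Between libraries of the same number, the log2 difference was -0.38 for replicate 1, -0.27 for replicate 2 and 0.013 for replicate 3. Without empty vector library 3 the log2 fold change was -0.42 with a DESeq2 adjusted p of 0.00108, in a fit that called 8.82% of all genes lower. With a term for the third replicates it was -0.21 with a DESeq2 adjusted p of 0.0216, beside 7.96% of all genes called lower, and over replicates 1 and 2 alone it was -0.32 with a DESeq2 adjusted p of 5.60e-07, beside 8.87%. In the fit of all 6 libraries to the stranded sums, 2.66% of all genes were called lower and 4.74% in either direction. The estimate was negative in all 14 alternatives, from -0.42 to -0.11, and passed in those 3 only. Without empty vector library 3, SOX10 was the 1 factor of 10 that passed, beside 17.1% of all genes tested in that fit of the column for either strand.

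PAX3, a neural crest factor that acts with SOX10 upstream of MITF, is encoded at chr2:222199887-222298998 on the minus strand (ENSG00000135903). Its normalized counts were 967, 891 and 808 in the empty vector libraries and 897, 840 and 779 in the HMGB2 overexpression libraries. In both groups replicate 3 was lowest, and the groups overlapped. PAX3 had a log2 fold change of -0.083 (SE 0.13, 95% interval -0.33 to 0.17), with a DESeq2 adjusted p of 0.874. Over the 14 alternatives the estimate ran from -0.15 to -0.021.

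TFAP2A, a neural crest factor that shares many binding sites with MITF, is encoded at chr6:10393186-10419659 on the minus strand (ENSG00000137203). It had 386, 465 and 289 normalized counts in the empty vector libraries and 392, 393 and 334 in the HMGB2 overexpression libraries. The HMGB2 overexpression libraries all lay inside the empty vector range. TFAP2A had a log2 fold change of -0.027 (SE 0.19, 95% interval -0.41 to 0.35), with a DESeq2 adjusted p of 0.982, and over the 14 alternatives the estimate ran from -0.19 without empty vector library 3 to 0.14 without empty vector library 2, with the other sign in 2. The column for either strand kept 87.9% of its stranded reads, and 13.8% of its 50-base words also occur in another gene, most of them in its antisense neighbour TFAP2A-AS2.

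**Figure D2:**
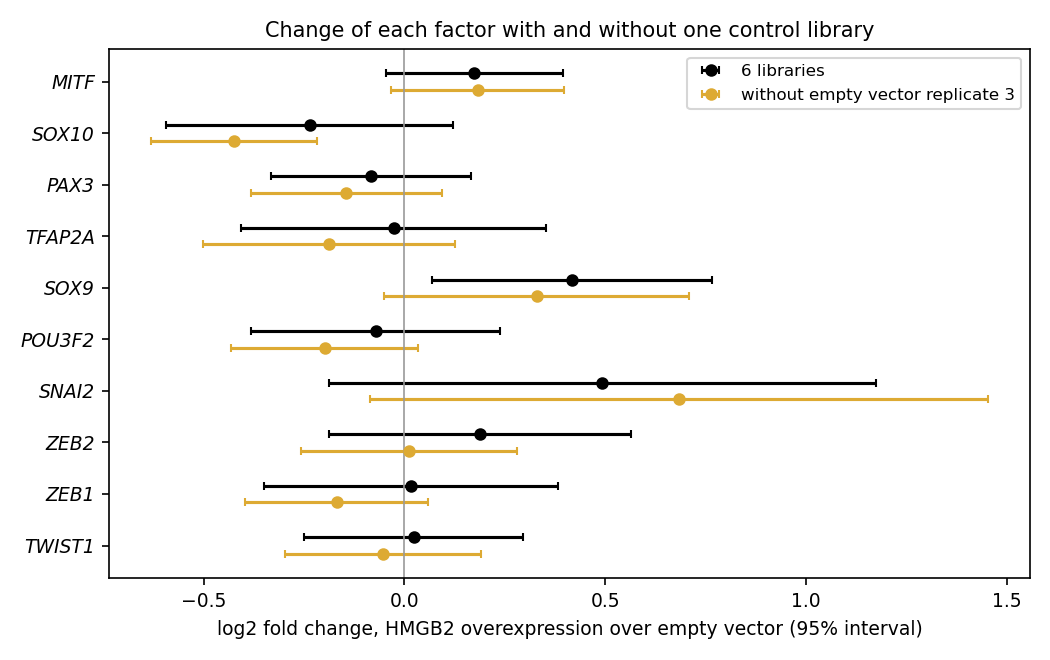
Log2 fold changes of the 10 factors, HMGB2 overexpression over empty vector, with 95% intervals, for all 6 libraries and without empty vector library 3. Only SOX9 has an interval above 0 with all 6 libraries, from 0.069 to 0.77, which without empty vector library 3 runs from -0.050 to 0.71, and SOX10 moves from -0.24 to -0.42 without empty vector library 3.

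SOX9, which is high in the neural crest and rises in many melanoma cells that lose SOX10, is encoded at chr17:72121020-72126416 on the plus strand (ENSG00000125398). It had normalized counts of 178, 187 and 149 in the empty vector libraries and 249, 222 and 216 in the HMGB2 overexpression libraries. Every HMGB2 overexpression library was above every empty vector library, as for 11.1% of all genes tested. SOX9 had a log2 fold change of 0.42 (SE 0.18, 95% interval 0.069 to 0.77). The unadjusted p was 0.0190 with DESeq2 and 0.0148 with edgeR, and the DESeq2 adjusted p was 0.199, so SOX9 did not pass. The estimate was between 0.33 and 0.48 in all 14 alternatives, and the lowest DESeq2 adjusted p among them was 0.0786, with a term for the third replicates. Between libraries of the same number, the log2 difference was 0.49, 0.25 and 0.53. None of its 50-base words occurs in another gene.

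POU3F2, the neural POU factor also named BRN2, is encoded at chr6:98834574-98839458 on the plus strand (ENSG00000184486). Its normalized counts were 1604, 1771 and 1256 in the empty vector libraries and 1494, 1623 and 1291 in the HMGB2 overexpression libraries. Replicate 3 was again the lowest of each group, and the HMGB2 overexpression libraries lay inside the empty vector range. The log2 fold change was -0.071 (SE 0.16, 95% interval -0.38 to 0.24), with a DESeq2 adjusted p of 0.919, and its interval ran from 0.768 to 1.18 times the empty vector level. Over the 14 alternatives the estimate ran from -0.20 without empty vector library 3 to 0.037 without empty vector library 2, with the other sign in 2. MITF and POU3F2 are often opposed in melanoma cells, and the ratio of MITF to POU3F2 per kilobase was 0.876, 0.854 and 1.18 in the empty vector libraries and 1.01, 1.06 and 1.36 in the HMGB2 overexpression libraries. Replicate 3 was the highest of each group, and the groups overlapped. Every HMGB2 overexpression library was above empty vector libraries 1 and 2, and HMGB2 overexpression libraries 1 and 2 were below empty vector library 3. The ratio was not tested between the groups. Another choice of length scales all 6 ratios alike, and over all exons MITF was below POU3F2, as given above.

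SNAI2, a zinc finger factor that acts early in the neural crest and is kept in the melanocyte lineage, was the least expressed of the 10 and is encoded at chr8:48917598-48921740 on the minus strand (ENSG00000019549). It had 33, 50 and 52 reads in the empty vector libraries and 46, 72 and 67 in the HMGB2 overexpression libraries, or normalized counts of 33.3, 44.3 and 55.8 and of 41.8, 70.9 and 75.4. HMGB2 overexpression libraries 2 and 3 were above every empty vector library, and library 1 was inside their range. The log2 fold change was 0.49 (SE 0.35, 95% interval -0.19 to 1.17), with a DESeq2 adjusted p of 0.597. At this depth the interval allows from 0.877 to 2.26 times the empty vector level, the widest of the 10 factors. Over the 14 alternatives the estimate ran from 0.32 without empty vector library 1 to 0.72 without HMGB2 overexpression library 1.

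ZEB2, the ZEB factor of differentiated melanocytes, is encoded at chr2:144364364-144521057 on the minus strand (ENSG00000169554). It had normalized counts of 802, 972 and 582 in the empty vector libraries and 828, 1019 and 836 in the HMGB2 overexpression libraries. The groups overlapped, with empty vector library 3 the lowest of the 6. ZEB2 had a log2 fold change of 0.19 (SE 0.19, 95% interval -0.19 to 0.56), with a DESeq2 adjusted p of 0.772. The estimate was 0.012 without empty vector library 3, 0.37 without empty vector library 2, 0.081 without HMGB2 overexpression library 2 and 0.057 over replicates 1 and 2 alone, and passed in none of these.

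ZEB1, the ZEB factor of invasive melanoma cells, is encoded at chr10:31318495-31529814 on the plus strand (ENSG00000148516). It had normalized counts of 2130, 2455 and 1460 in the empty vector libraries and 2125, 2199 and 1792 in the HMGB2 overexpression libraries. All 3 HMGB2 overexpression libraries lay inside the empty vector range. ZEB1 had a log2 fold change of 0.016 (SE 0.19, 95% interval -0.35 to 0.38), with a DESeq2 adjusted p of 0.990, and over the 14 alternatives the estimate ran from -0.17 without empty vector library 3 to 0.18 without empty vector library 2, with the other sign in 5.

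TWIST1, a helix-loop-helix factor of the mesenchyme, is encoded at chr7:19020991-19117636 on the minus strand (ENSG00000122691). Its normalized counts were 1226, 1048 and 957 in the empty vector libraries and 1135, 1164 and 984 in the HMGB2 overexpression libraries. The HMGB2 overexpression libraries lay inside the empty vector range. TWIST1 had a log2 fold change of 0.023 (SE 0.14, 95% interval -0.25 to 0.30), with a DESeq2 adjusted p of 0.977. Over the 14 alternatives the estimate ran from -0.054 without empty vector library 3 to 0.12 without empty vector library 1, with the other sign in 3.

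The spread within each group had a shape that most factors shared. Empty vector library 3 was the lowest of its group for 8 of the 10 factors, all but MITF and SNAI2, beside 40.9% of all genes tested. HMGB2 overexpression library 3 was the lowest of its group for 7 of the 10, beside 39.2% of all genes tested, and SOX10, PAX3, TFAP2A, SOX9, POU3F2, ZEB1 and TWIST1 were lowest in both, beside 27% of all genes tested. The median log2 difference of replicate 3 from the mean of replicates 1 and 2 was -0.36 for the 10 factors in the empty vector group and -0.19 in the HMGB2 overexpression group, against 0.011 and 0.0012 for all genes tested. SOX10 was -0.66 and -0.33 in the 2 groups, ZEB1 -0.65 and -0.27, and ZEB2 -0.60 and -0.14. SNAI2 went the other way, at 0.53 and 0.46. These values describe the libraries, and the part of the third replicates in the results above was not tested beyond the fits named.

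**Figure D3:**
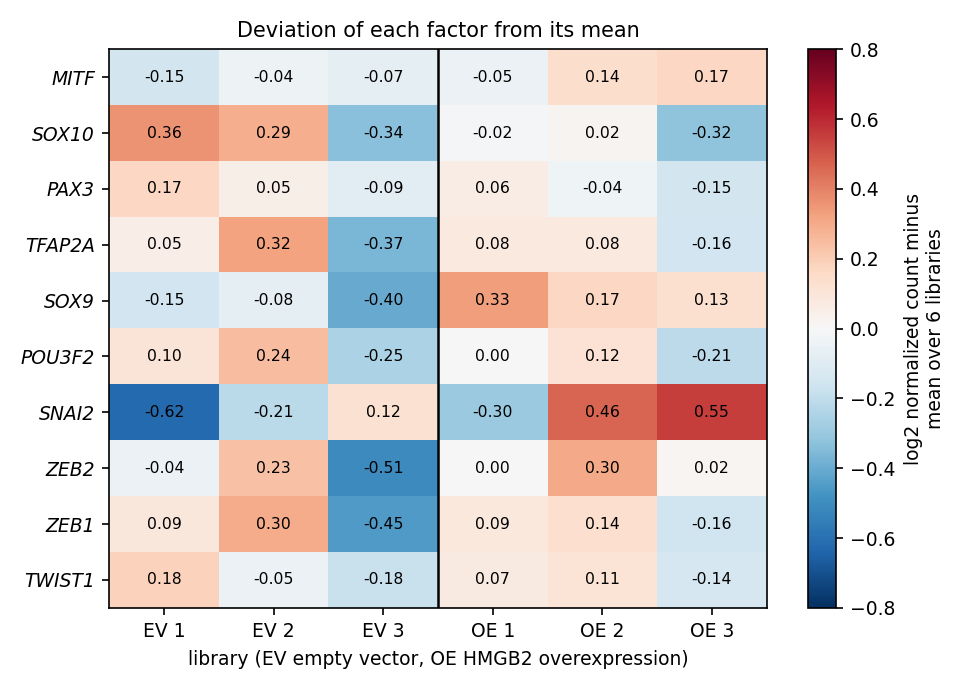
Deviation of each library's log2 normalized count from the mean of the 6 libraries, for each of the 10 factors; colour and number give the log2 deviation. Empty vector library 3 is lowest of its group for 8 factors and HMGB2 overexpression library 3 for 7.

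Around the factors, 73 genes in 5 lists, chosen with earlier results of these data known, were read in the same fit. 8 of them passed, 3 higher (CTNNB1, FN1 and TGFBI) and 5 lower (SOX8, BCL2A1, CLDN1, NGFR and AXL) in HMGB2 overexpression libraries. Each list held between 0 and 2 genes that passed in a given direction, where 2.29% of all genes tested passed as higher and 2.64% as lower. In the order below, 11, 9, 18, 14 and 10 genes of the lists could be tested. Of these 9.09%, 11.1%, 5.56%, 14.3% and 30% passed, beside 4.93% of all genes tested. Without empty vector library 3, the lists held 3, 3, 4, 4 and 4 genes that passed, beside 17.1% of all genes tested in that fit. Not all of these genes are named here. Genes that pass tend to have groups that do not overlap, so the lack of overlap given below is no further support. It held for 21.8% of all genes tested.

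**Figure D4:**
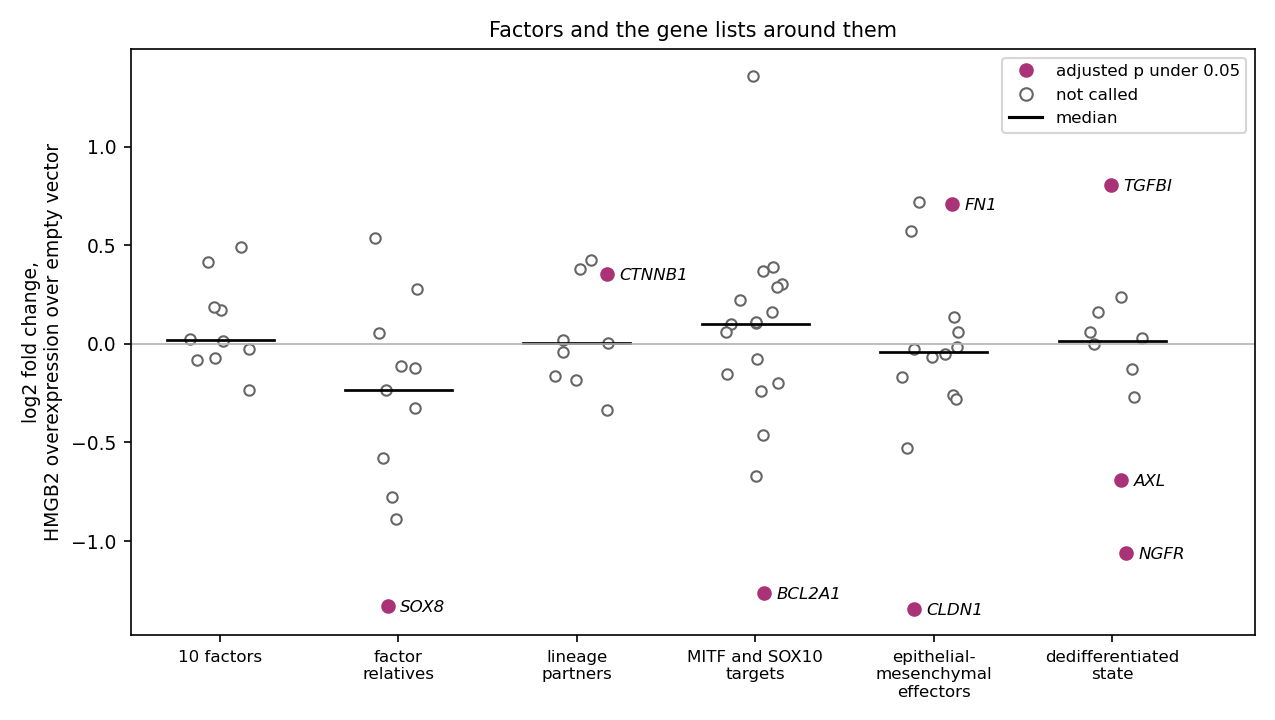
Log2 fold changes, HMGB2 overexpression over empty vector, of the 10 factors and the tested genes of the 5 lists; each point is a gene, filled where it passed the test at an adjusted p under 0.05, and lines are medians. None of the factors and 8 list genes passed, 3 of them higher and 5 lower.

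Of 15 relatives of the factors, meaning other members of the MITF, SOXE, PAX, AP-2, POU, SNAI and TWIST families, 11 could be tested and 1 passed, SOX8, which was lower. SOX8, a SOXE gene closely related to SOX9 and SOX10, had normalized counts of 112, 136 and 108 in the empty vector libraries and 60.9, 56.1 and 23.6 in the HMGB2 overexpression libraries. Every HMGB2 overexpression library was below every empty vector library. SOX8 fell by 1.33 on the log2 scale (SE 0.33), with a DESeq2 adjusted p of 0.00249, but the adjusted p was 0.0572 with edgeR and 0.0755 without empty vector library 2. The 2 most abundant relatives that did not pass were TFAP2C and TFAP2B, both AP-2 factors like TFAP2A. TFAP2C had a log2 fold change of -0.24 with a DESeq2 adjusted p of 0.643, and 0.00329 without empty vector library 3. TFAP2B had a log2 fold change of 0.28 with a DESeq2 adjusted p of 0.614. With a term for the third replicates its adjusted p was 0.000464, and without empty vector library 3 its log2 fold change was 0.089 with an adjusted p of 0.723. The median of the list was -0.24.

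Of 10 partners of the lineage factors, 9 could be tested and 1 passed. CTNNB1, which encodes beta-catenin, the coactivator that LEF1 brings to the MITF promoter, had normalized counts of 19272, 20025 and 20889 in the empty vector libraries and 24435, 26049 and 26404 in the HMGB2 overexpression libraries. The groups did not overlap. CTNNB1 rose by 0.35 on the log2 scale (SE 0.091), with a DESeq2 adjusted p of 0.00433. The call was lost with edgeR, at an adjusted p of 0.0585, and when any library but empty vector library 3 was left out, at DESeq2 adjusted p-values of 0.105 to 0.232. ETS1, a factor of the neural crest, was lower in every HMGB2 overexpression library, with a log2 fold change of -0.34 and a DESeq2 adjusted p of 0.127, and of 4.90e-05 without empty vector library 3. CREB1, which reads cAMP response elements like that of the MITF window above, had a log2 fold change of 0.0048 and a DESeq2 adjusted p of 0.994. Its sign turned when empty vector library 1, empty vector library 2 or HMGB2 overexpression library 3 was left out. The median of the list was 0.0048.

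Of 24 targets of MITF and SOX10, 18 could be tested and 1 passed. BCL2A1, whose upstream window is printed above, had normalized counts of 100.01, 106 and 109 in the empty vector libraries and 61.8, 28.6 and 40.5 in the HMGB2 overexpression libraries. Every HMGB2 overexpression library was below every empty vector library. BCL2A1 fell by 1.26 on the log2 scale (SE 0.31), with a DESeq2 adjusted p of 0.00193, or 0.0665 without HMGB2 overexpression library 2. ERBB3, a receptor driven by SOX10, had a log2 fold change of -0.20 and a DESeq2 adjusted p of 0.617, and of 0.0173 without empty vector library 3. MET, a receptor driven by MITF, was lower in every HMGB2 overexpression library, with a log2 fold change of -0.15 and a DESeq2 adjusted p of 0.472, of 0.0499 with a term for the third replicates and of 0.324 without empty vector library 3. The median of the list was 0.10. Several pigment genes were near the floor in all libraries: TYR, the rate-limiting enzyme of melanin synthesis, had a normalized count of 0.985 in HMGB2 overexpression library 2 and 0 in the others, and MLANA, a melanosome protein, had 3.38 to 10.8. For the pigment genes PMEL and SLC24A5 the column for either strand kept only 3.37% and 0.151% of the stranded reads, so their counts there do not give their level. 

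Of 14 effectors of the epithelial-mesenchymal transition, all could be tested, and 1 passed in each direction. CLDN1, a tight junction protein of epithelia, had normalized counts of 775, 751 and 744 in the empty vector libraries and 364, 262 and 267 in the HMGB2 overexpression libraries. The groups were far apart. CLDN1 fell by 1.34 on the log2 scale (SE 0.16), with a DESeq2 adjusted p of 5.43e-14.

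FN1, the matrix protein fibronectin, had normalized counts of 5128, 5217 and 4765 in the empty vector libraries and 8462, 8551 and 7728 in the HMGB2 overexpression libraries. FN1 rose by 0.71 on the log2 scale (SE 0.098), with a DESeq2 adjusted p of 1.97e-10. Neither of these calls was lost in any of the 14 alternatives. VIM, an intermediate filament of the mesenchyme, had a log2 fold change of -0.053 and SPARC, a matrix protein, one of 0.061, with DESeq2 adjusted p-values of 0.935 and 0.884. The estimate for VIM was 0.073 without empty vector library 2. The column for either strand kept only 21.3% of the stranded reads of VIM. The median of the list was -0.041.

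Of 10 genes of the dedifferentiated state, 3 passed. NGFR, the neural crest receptor that marks dedifferentiated melanoma cells, had normalized counts of 2911, 2473 and 1846 in the empty vector libraries and 1089, 1307 and 1071 in the HMGB2 overexpression libraries. It fell by 1.06 on the log2 scale (SE 0.18), with a DESeq2 adjusted p of 2.99e-07. The groups did not overlap, and the empty vector spread was wide.

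AXL, a receptor kinase of the invasive state, had normalized counts of 32516, 32382 and 24517 in the empty vector libraries and 19132, 19646 and 16596 in the HMGB2 overexpression libraries. It fell by 0.69 on the log2 scale (SE 0.14), with a DESeq2 adjusted p of 8.60e-05. Replicate 3 was the lowest in each group for NGFR and AXL, as for most of the 10 factors.

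TGFBI, a matrix protein induced by TGF-beta, had normalized counts of 10667, 10470 and 9089 in the empty vector libraries and 17894, 17831 and 17130 in the HMGB2 overexpression libraries. It rose by 0.81 on the log2 scale (SE 0.10), with a DESeq2 adjusted p of 3.30e-12. The genes of the list that passed thus went both ways, and its median was 0.015. NES, which encodes the neural stem cell filament nestin, had a log2 fold change of 0.030 with a DESeq2 adjusted p of 0.973, and of -0.13 without empty vector library 3. LOXL2, a matrix cross-linking enzyme, had a log2 fold change of 0.24 with a DESeq2 adjusted p of 0.439. With a term for the third replicates its adjusted p was 0.000966, and without empty vector library 3 its log2 fold change was 0.13 with an adjusted p of 0.387. Calls of NGFR, AXL and TGFBI held in all 14 alternatives.

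**Figure D5:**
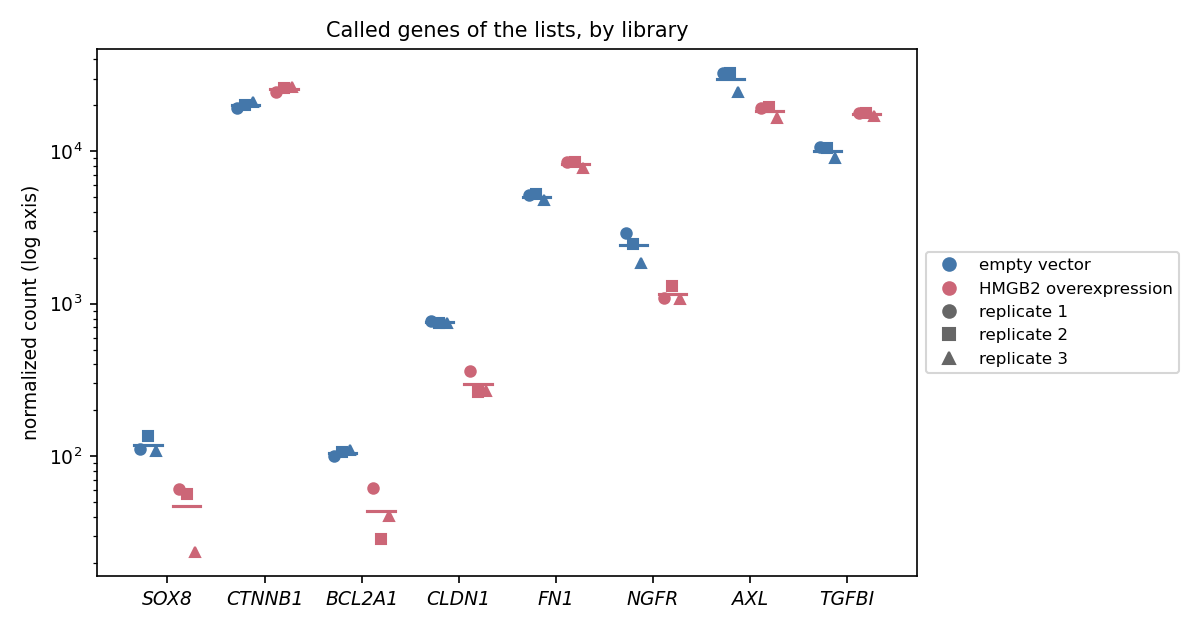
Normalized counts in each library of the 8 list genes that passed the test, with a log axis; points are single libraries of the empty vector and HMGB2 overexpression groups, shaped by replicate, and short lines are group means. The groups do not overlap for any of the 8 genes, beside 21.8% of all genes tested. The 8 were picked by the test on these same libraries, so this is no further support.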

How the data were processed

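Poly(A) RNA of 3 empty vector and 3 HMGB2 overexpression samples was sequenced. The tables the authors deposited hold raw counts of reads for each gene, in STAR's layout and not normalized. Their processing notes name bcl2fastq 2.20, FastQC, Trimmomatic, STAR and GRCh38; the aligner version and annotation release are not given in the sources used here. The column for either strand was used except for SOX10, which has 0 counts there and was read from the sum of the stranded columns of every gene. That column also dropped many reads of some listed genes. Of their stranded reads it kept 0.151% for SLC24A5, 0.299% for CD68, 3.37% for PMEL, 37.4% for CDK2 and 39.9% for FOXD3. A low count of such a gene need not be low expression. The 4 summary lines entered neither library sizes nor tests. Symbols and coordinates came from GENCODE 44, with 57532 of 58302 IDs matched.

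The test was the Wald test of DESeq2 1.42.0 (R 4.3.3) at its default parameters, as in the study's methods, with group as the single term. A gene passed when its p, adjusted by Benjamini-Hochberg over all genes, was under 0.05 (independent filter at 0.1). Of 32925 genes with a count, 18878 were tested and 14047 set aside for a low mean or an outlying count. Fold changes are unshrunken, and intervals are 95% Wald intervals. The scripts were tested on simulated data.

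The 14 alternatives were edgeR 4.0.16 (quasi-likelihood, TMM), TMM factors, a filter of 10 counts in 3 libraries, no independent filter, the stranded sum, a replicate block, a term for the third replicates, replicates 1 and 2 alone, and leaving out each library. Members, lists and alternatives were chosen with earlier results of these data known. Named were the 10 factors, HMGB2, and per list up to 6 genes that passed and the 2 most abundant tested genes that did not. TYR, MLANA, PMEL, SLC24A5, CDK2, FOXD3, KRT1, KRT5, KRT10, KRT14, DSG3, PTPRC, LYZ, CD68 and the genes under other observations were named after their values were seen. Promoter windows were searched by exact match, and shared 50-base words were counted in annotated transcripts.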

Additional observations from a re-analysis of the deposited data

How the results depend on the processing

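None of the 8 list genes that passed changed sign in any of the 14 alternatives, nor did HMGB2. Over all genes, 432 were higher and 498 lower. With edgeR these counts were 215 and 255, with the replicate block 888 and 937, with a term for the third replicates 1372 and 1362, and over replicates 1 and 2 alone 1205 and 1408. Leaving out 1 library gave 155 to 1332 higher and 208 to 1509 lower. Of the 10 factors, none passed, 1 with the term for the third replicates, 1 over replicates 1 and 2 alone, and 0 to 1 when 1 library was left out, each time SOX10; without empty vector library 3 it was 1. Of the 73 list genes, 3 passed as higher and 5 as lower. These were 7 and 8 with the block, 8 and 10 with the term for the third replicates, 9 and 13 over replicates 1 and 2 alone, and 2 to 6 and 4 to 12 when 1 library was left out, with 6 and 12 without empty vector library 3. The cause was not tested. The labels do not say whether samples with the same number were paired, and the main test did not pair them. The correlations of their deviations from the group means were 0.091, 0.14 and 0.35 over 16692 genes. Empty vector libraries 1, 2 and 3 correlated best with HMGB2 overexpression libraries 2, 2 and 3, which does not settle whether they were paired. With the replicate block, SOX10 had a log2 fold change of -0.21 and a DESeq2 adjusted p of 0.0667. Depth limits SNAI2 most, with 33 to 72 reads per library.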

Other observations

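A few list genes stood out after their values had been seen and lie outside the rule for named genes. EDNRB, the endothelin receptor of the melanocyte lineage and a SOX10 target, had normalized counts of 2995, 3088 and 3405 in the empty vector libraries and 4014, 3733 and 3832 in the HMGB2 overexpression libraries. Its log2 fold change was 0.29 (SE 0.10) with a DESeq2 adjusted p of 0.0806, and of 0.00192 without empty vector library 3. Every HMGB2 overexpression library was above every empty vector library, as for 11.1% of all genes tested. The estimate was above 0, and those for SOX10 and for ERBB3, another SOX10 target, were below 0. None of them passed over all 6 libraries. PPARGC1A, a mitochondrial coactivator driven by MITF, was low, at 13.1, 8.86 and 9.66 against 31.8, 17.7 and 31.5 normalized counts, with a DESeq2 adjusted p of 0.115. MSX1, a neural crest homeobox gene, had 397, 337 and 352 against 458, 563 and 439 normalized counts, with a log2 fold change of 0.43 and a DESeq2 adjusted p of 0.101, or 0.0168 with a term for the third replicates and 0.0638 without empty vector library 3.

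In KRT5, whose values are given above, empty vector library 3 lay within the range of the HMGB2 overexpression libraries. The log2 fold change of KRT5 was 1.32 with all 6 libraries and 4.86 without empty vector library 3. HMGB2 itself was 7562 in empty vector library 3, within the range of the other empty vector libraries. CDH1, the epithelial cadherin, had 491 normalized counts in HMGB2 overexpression library 1 and between 119 and 197 in the other five libraries, with a log2 fold change of 0.57 and a DESeq2 adjusted p of 0.795, and a log2 fold change of -0.29 without HMGB2 overexpression library 1.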
